A study of Homo sapiens with 4 samples.

Results

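The genes described are the Polycomb and trithorax group, the opposing chromatin regulators that keep developmental genes off or on. They were chosen by name, from a list of 38 symbols, of which 37 have a row among the 57905 identifiers of the expression table. All 37 passed the filter on low values, a mean of at least 1 FPKM over the libraries, and are among 15320 genes tested; PCGF2 was not analysed here. The libraries are polyadenylated RNA from cells labelled MG63, a human osteosarcoma line, collected 48 hours after transfection, 2 given the control siRNA and 2 given one that targets KLF11, a Krüppel-like zinc finger repressor. No genetic modification is named for either group, and every culture was grown in the same serum-containing medium per the labels. Levels are FPKM, fragments scaled by gene length and library total, so levels of different genes can be set side by side. The labels do not say whether replicates were separate cultures, so p-values rest on the spread of these libraries alone, and that spread may be technical.

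Polycomb proteins work in 2 families of complexes. Polycomb repressive complex 2 (PRC2) places methyl groups on lysine 27 of histone H3, through EZH1 or EZH2 held by SUZ12 and EED. PRC1 attaches ubiquitin to histone H2A through RING1 or RNF2 paired with a PCGF protein. Its canonical forms add a CBX protein, which reads the PRC2 mark, and a PHC protein, which polymerises; its variant forms carry RYBP or YAF2 instead. Trithorax proteins counter them: the KMT2 enzymes methylate lysine 4 of histone H3 on a shared platform of WDR5, RBBP5, ASH2L and DPY30, with menin (MEN1) joining KMT2A and KMT2B. In stem cells both marks meet on the promoters of silent developmental genes.

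The label of the cells was checked against marker genes. RUNX2, the defining osteoblast factor, measured 0.03 and 0.02 FPKM with control siRNA, then 0.60 and 0.65 FPKM after knockdown, and SP7 was at or below 0.04 FPKM and IBSP at 0 in every library. All 11 pluripotent cell markers and all 9 early endoderm markers with a row passed the filter in these libraries, as did all 10 epithelial markers, and 0 of 6 leukocyte markers did. Summed early endoderm markers were 5163 and 5130.0 FPKM with control siRNA, then 1308 and 3057 FPKM after knockdown. Most of that sum was CER1, at 4430 and 4406 against 958 and 2574 FPKM, which did not pass (adjusted p = 0.0543, limma). Summed pluripotent markers were 1637 and 1634 against 3069 and 2560.0 FPKM, of which POU5F1 gave 186 and 177 against 1364 and 1068 FPKM. Summed mesenchymal markers were 395 and 360.4 against 1149 and 1098 FPKM, and epithelial ones 2586 and 2390 against 1189 and 1433 FPKM. VIM gave 144 and 131 against 808 and 800 FPKM of the mesenchymal sum, while FN1 had 234 and 218 against 198 and 181 FPKM. The osteosarcoma and osteoblast list was mixed: 6 of its 10 genes passed the filter, and its sum was 924 and 884 against 1241 and 1104 FPKM. SPARC (637 to 772 FPKM), COL1A2 (115 to 136 FPKM) and ALPL (79.3 to 106 FPKM) were abundant in every library, SPP1 rose from 2.31 and 2.76 FPKM to levels of 247 and 99.1, TNFRSF11B rose and COL1A1 fell. RUNX2, SP7 and IBSP were at or near 0 in the controls, and pluripotent and endoderm markers were abundant. These markers go against the label of an osteosarcoma line, although SPARC, COL1A2 and ALPL were abundant too. The cells are named only as labelled. Of the tested markers 7 of 11 pluripotent and 5 of 6 mesenchymal ones rose, and 5 of 9 endoderm and 8 of 10 epithelial ones fell. Of all genes tested 13.5% were higher and 21.7% lower. In the other direction 2 pluripotent markers fell (SALL4 and LIN28A) and 1 endoderm marker rose (EOMES). Only 6 of 10 mesenchymal markers reached the filter, TWIST1 (control mean 0.935 FPKM) through the knockdown libraries. These lists move with the groups, and their part in the results was not tested. In a mixed culture, fewer cells of a type and less RNA per cell cannot be told apart. KLF11 itself measured 12.3 and 12.4 FPKM with control siRNA, then 5.49 and 6.74 FPKM after knockdown (a log2 change of -0.92, SE 0.139, adjusted p = 0.00951, limma). Libraries correlated at 0.982 and 0.976 within groups and at 0.894 to 0.930 between groups, as Pearson's r of log2 values across genes.

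Every Polycomb and trithorax gene measured was expressed, with means over the libraries from 3.54 FPKM for CBX8 to 177 FPKM for RBBP4 and a median of 14.1 FPKM. Between the groups 4 of the 37 were higher with KLF11 siRNA (PHC1, JARID2, PCGF5, KMT2A) and 9 were lower (ASH2L, RBBP7, PHC2, PHF1, MEN1, CBX2, YAF2, PCGF3, DPY30) at a Benjamini-Hochberg adjusted p under 0.05 in limma. The 13 called make 35.1% of the genes, against 35.2% of all genes tested; 10.8% were higher against 13.5% of all genes, and 24.3% lower against 21.7%. The median log2 change was -0.09 for the group and -0.11 for all genes, and the median absolute change was 0.35 against 0.36. The set as a whole thus changed about as often and as far as the transcriptome did. Of the 37, 4 were called and moved by at least 1 log2 unit (PHC1, JARID2, ASH2L and RBBP7), or 10.8%, against 12.9% of all genes. For 29 of the 37 genes both knockdown libraries lay on the same side of both controls, against 73.4% of all genes tested.

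How many rose and how many fell depended on the scaling between libraries. Median-of-ratios scaling and quantile normalization shift the median of all genes from -0.11 to 0.00 and 0.01. Median-of-ratios scaling gave 9 higher and 7 lower, against 18.0% higher, 17.0% lower and 35.0% either way of all genes. Quantile normalization gave 8 higher and 7 lower, against 17.3%, 17.4% and 34.7%, and both moved the median of the 37 genes from -0.09 to 0.03. Scaling to TPM gave 3 higher and 10 lower, against 11.9%, 24.1% and 36.0%. With no filter on low values 2 were higher and 3 lower, against 2.59%, 3.65% and 6.25% of all genes. PHC1, JARID2, KMT2A and PCGF5 stayed above 0, and the 9 lower genes below 0, under all 3 scalings. Without control siRNA replicate 1, or without replicate 2, 0 genes passed in limma, of these or of all genes, while 10 or 8 of the 37 had an unadjusted p under 0.05 (29.1% or 31.3% of all genes). Without KLF11 siRNA replicate 1 the calls of PCGF3, PCGF5, CBX2 and DPY30 were lost, and BMI1 (lower) and PCGF1 (higher) were gained. Without replicate 2 that of KMT2A was lost, and PHF19 and WDR5 (both higher) were gained. Each of these fits leaves 1 library in the KLF11 siRNA group.

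**Figure D1:**
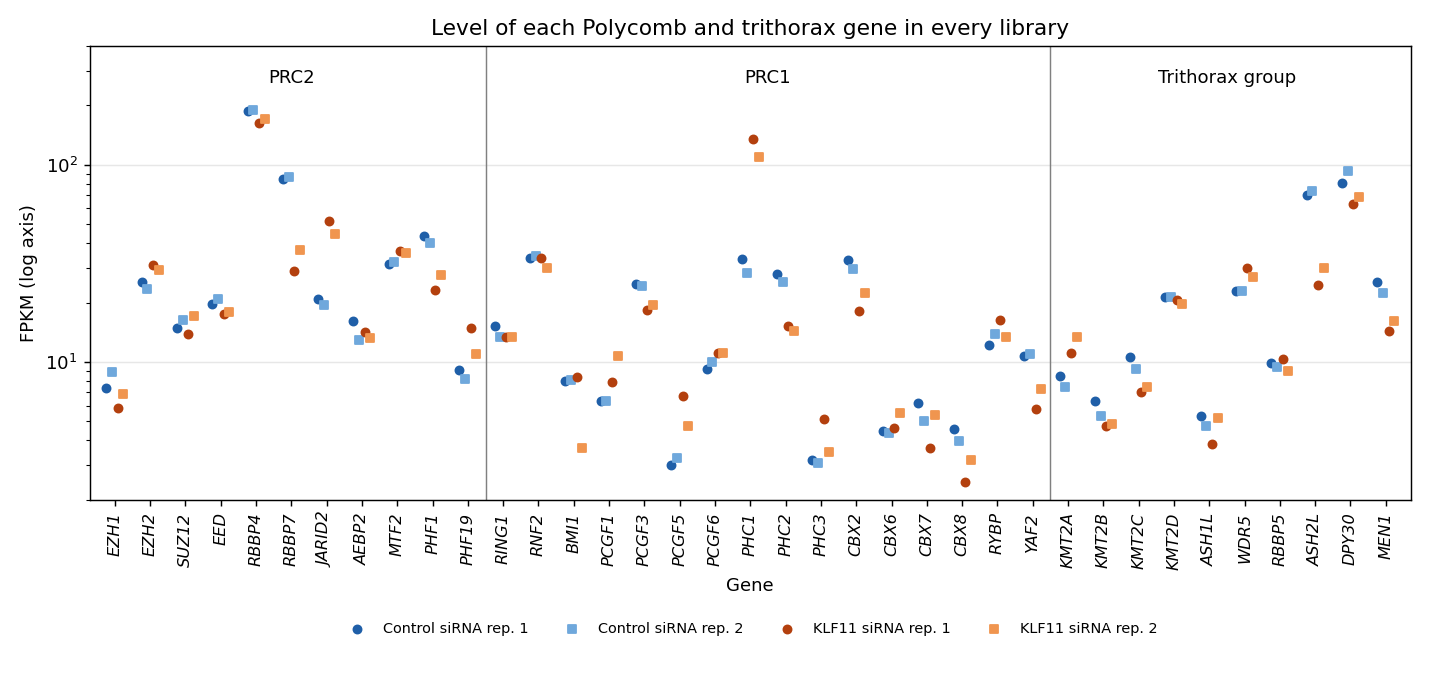
FPKM on a log axis for the 37 genes in order of complex, 1 point per library, with circles for replicate 1 and squares for replicate 2. PHC1 and JARID2 lie above their control points, and RBBP7 and ASH2L below them, in both KLF11 siRNA libraries, while BMI1 has 1 KLF11 siRNA library at the control level and 1 far below.

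The PHC subunits of canonical PRC1 showed the largest contrast. PHC1, which encodes a Polyhomeotic protein with a polymerising SAM domain, measured 33.4 and 28.4 FPKM with control siRNA, then 134 and 109.6 FPKM after knockdown. That is a 3.94-fold rise of the mean, from 30.9 ± 3.55 to 122 ± 17.4 FPKM (SD, n = 2 each; log2 change 1.94, SE 0.138, adjusted p = 0.00249, limma). Both KLF11 siRNA libraries stood far above both controls. PHC2, its paralogue, fell from 27.8 and 25.4 FPKM to levels of 15.3 and 14.4 (a log2 change of -0.80, SE 0.104, adjusted p = 0.00679), and again the groups did not overlap. PHC3, the least abundant of them, did not pass, with 3.20 and 3.06 FPKM with control siRNA, then 5.12 and 3.51 FPKM after knockdown (adjusted p = 0.228).

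The make-up of the PHC slot therefore differed between the groups. PHC1 gave 51.9% and 50.0% of the summed PHC level in the control libraries and 86.8% and 86.0% in the KLF11 siRNA libraries, and PHC2 43.2% and 44.6% against 9.89% and 11.3%. The ratio of PHC1 to PHC2 was 1.20 and 1.12 in control and 8.77 and 7.62 with KLF11 siRNA. Because PHC1 rose by more FPKM than PHC2 lost, the summed PHC level went from 64.4 and 56.8 to 155 and 127 FPKM. An exact permutation test of 2 libraries against 2 cannot go below p = 0.3333, so shares carry no test. Reads of PHC1 can be shared with its pseudogene PHC1P1, which was listed at 3.24 and 5.82 FPKM with control siRNA, then 19.3 and 13.3 FPKM after knockdown. The level of PHC1 is uncertain to that extent; it was 4.88 to 10.3 times that of PHC1P1 in the 4 libraries. None of the nearest 4 protein-coding genes around PHC1 passed as higher: M6PR measured 85.0 and 84.2 against 88.8 and 79.7 FPKM, RIMKLB 27.6 and 29.3 against 28.9 and 29.7 FPKM, and A2ML1 was lower, at 3.82 and 3.87 against 0.95 and 0.99 FPKM. The fourth, KLRG1, pointed the same way as PHC1 without overlap, at 0.97 and 0.76 against 1.42 and 1.3 FPKM (adjusted p = 0.235).

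The promoters of the PHC pair and of JARID2 are shown because PHC1 and JARID2 gave the largest rises and PHC2 moved against its paralogue, and because KLF11 belongs to a family that binds GC-rich boxes. Each line is the 250 bases before a RefSeq transcription start (build GRCh38.p14), 5′ to 3′ on the gene's strand, with capitals for the GC box GGGCGG or its complement CCGCCC.
PHC1, chr12:8913593-8913842 (plus strand): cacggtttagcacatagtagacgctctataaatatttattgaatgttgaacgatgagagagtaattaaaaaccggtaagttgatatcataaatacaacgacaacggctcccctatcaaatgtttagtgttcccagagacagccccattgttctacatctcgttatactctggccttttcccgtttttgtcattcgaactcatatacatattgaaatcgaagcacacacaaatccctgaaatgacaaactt
PHC1, chr12:8914259-8914508 (plus strand): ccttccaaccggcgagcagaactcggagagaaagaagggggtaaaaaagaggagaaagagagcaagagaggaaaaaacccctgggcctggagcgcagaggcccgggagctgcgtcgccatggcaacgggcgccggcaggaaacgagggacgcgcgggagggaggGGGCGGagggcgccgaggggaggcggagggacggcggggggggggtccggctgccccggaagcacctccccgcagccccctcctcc
PHC2, chr1:33349900-33350149 (minus strand): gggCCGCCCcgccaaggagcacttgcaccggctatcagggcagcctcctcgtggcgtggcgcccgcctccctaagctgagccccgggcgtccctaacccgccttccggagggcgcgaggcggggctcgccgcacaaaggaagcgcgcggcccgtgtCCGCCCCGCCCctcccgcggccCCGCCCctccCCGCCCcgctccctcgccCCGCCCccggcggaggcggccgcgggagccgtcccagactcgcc
PHC2, chr1:33431096-33431345 (minus strand): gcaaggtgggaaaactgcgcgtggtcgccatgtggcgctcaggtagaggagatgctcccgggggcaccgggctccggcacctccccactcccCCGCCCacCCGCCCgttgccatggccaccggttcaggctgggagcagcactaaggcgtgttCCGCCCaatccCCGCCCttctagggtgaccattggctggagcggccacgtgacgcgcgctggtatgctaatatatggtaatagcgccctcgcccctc
JARID2, chr6:15245819-15246068 (plus strand): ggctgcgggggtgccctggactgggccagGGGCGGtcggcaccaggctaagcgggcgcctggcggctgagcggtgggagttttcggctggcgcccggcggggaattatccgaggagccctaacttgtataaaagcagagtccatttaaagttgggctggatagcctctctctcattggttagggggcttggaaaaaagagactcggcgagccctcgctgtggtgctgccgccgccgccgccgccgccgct
JARID2, chr6:15248605-15248854 (plus strand): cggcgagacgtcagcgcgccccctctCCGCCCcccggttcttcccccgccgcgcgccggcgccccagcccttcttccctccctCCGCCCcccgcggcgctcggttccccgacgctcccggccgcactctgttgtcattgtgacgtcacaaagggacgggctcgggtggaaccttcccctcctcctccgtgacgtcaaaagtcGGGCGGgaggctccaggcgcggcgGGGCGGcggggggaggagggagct

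The first PHC1 start has an AT-rich window with 37.6% G and C and 0 GC boxes, and the second one has 70.4% and 1 GC box. PHC2 has 6 and 4 GC boxes, and JARID2 1 and 4. Across the genes with a window in the table (33 of 37, with 48 windows; CBX2, CBX8, ASH2L and DPY30 had none), 79.2% of windows held GGGCGG on either strand. Of all 35116 windows of the same length 42.6% did. Members' windows were also richer in G and C, with a median of 72.8% against 58.0%, and in CpG, with medians of 28.5 and 11 per window. The TEAD motif GGAATG was in 4.17% of members' windows (ASH1L and BMI1) and in 11.9% of all. The E2F-like TTTCCCGC was in 4.17% (PHF19 and SUZ12) against 1.39% of all, and TTTGGCGC in 0 against 0.55%. A match only describes the letters in the window, and both PHC2, which fell, and JARID2, which rose, hold GC boxes.

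**Figure D2:**
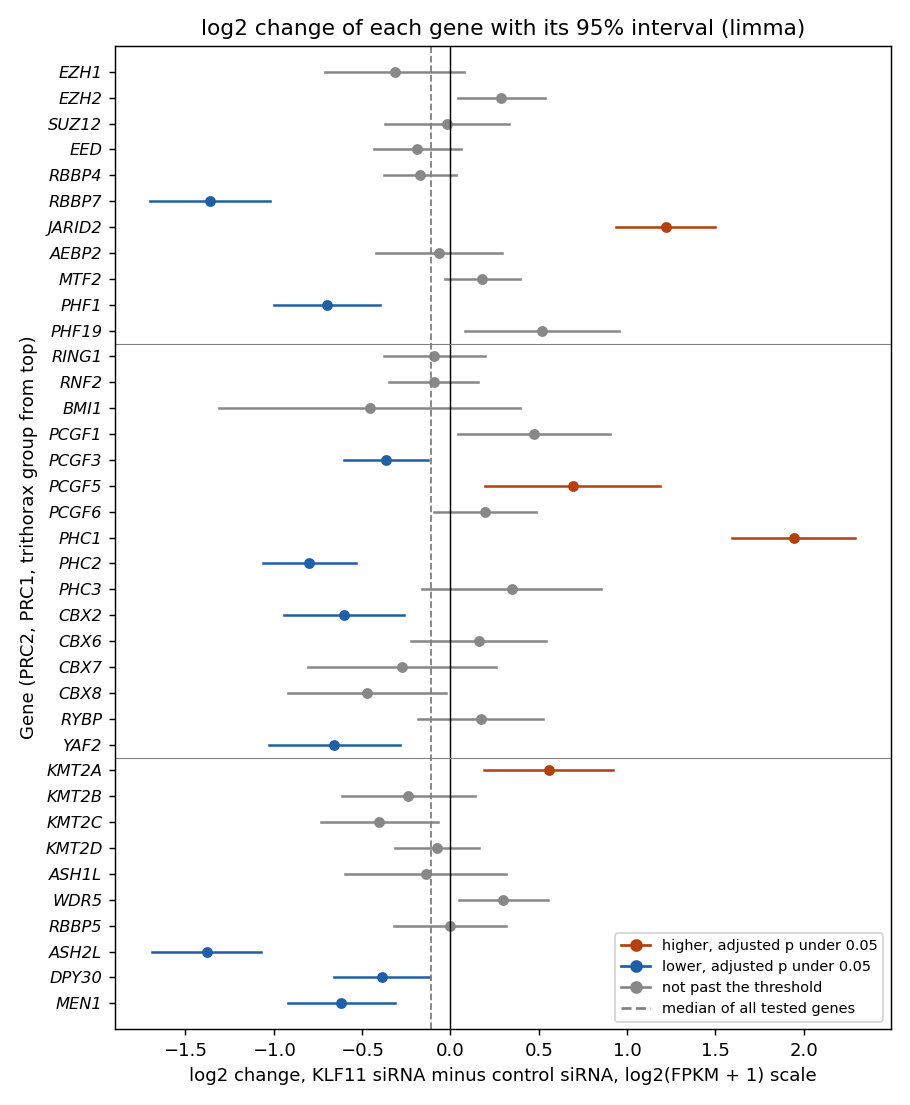
Fitted log2 change (KLF11 siRNA minus control siRNA, log2(FPKM + 1) scale) for each gene with its 95% interval from limma, in order of complex from PRC2 to the trithorax group; the dashed line is the median of all genes tested, -0.11. The 4 higher and 9 lower genes are coloured, and the catalytic subunits run from -0.40 for KMT2C to 0.56 for KMT2A, the only one of them called.

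In PRC2 the calls fell on JARID2, RBBP7 and PHF1, and neither methyltransferase nor SUZ12 or EED passed. EZH2, the main methyltransferase of dividing cells, measured 25.5 and 23.5 FPKM with control siRNA, then 31.2 and 29.1 FPKM after knockdown. Its groups did not overlap, but it did not pass (a log2 change of 0.29, 95% interval 0.04 to 0.54, adjusted p = 0.0723); it passed with median-of-ratios scaling (adjusted p = 0.0284) and quantile normalization (adjusted p = 0.0312). EZH1, the weaker enzyme of non-dividing cells, had 7.37 and 8.93 against 5.85 and 6.84 FPKM (adjusted p = 0.169). EZH2 made up 77.6% and 72.5% of the EZH level in control and 84.2% and 81.0% in KLF11 siRNA libraries. The scaffold SUZ12 overlapped between groups, at 14.8 and 16.4 against 13.8 and 17.1 FPKM (95% interval of the log2 change -0.37 to 0.33). EED, which binds the mark that PRC2 writes, was at 19.7 and 20.9 against 17.6 and 17.9 FPKM (adjusted p = 0.19).

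The histone-binding subunits RBBP4 and RBBP7, near-identical WD40 proteins also found in histone deacetylase complexes, parted. RBBP7 dropped from 84.1 and 86.5 FPKM to 28.8 and 36.9 FPKM, with the groups far apart (a log2 change of -1.36, SE 0.134, adjusted p = 0.00436, limma). RBBP4, the most abundant gene of the whole set, had 187 and 189 against 162 and 171 FPKM and did not pass (adjusted p = 0.15). RBBP4 thus supplied 69.0% and 68.6% of their sum in control and 84.9% and 82.3% with KLF11 siRNA, and the sum went from 271 and 275 to 191 and 208 FPKM. HDAC1, a deacetylase that shares these subunits, was lower in the same libraries, at 84.5 and 90.1 against 33.1 and 49.8 FPKM (adjusted p = 0.0145).

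Accessory subunits define the forms of PRC2. JARID2, which helps PRC2 to find and hold its targets in stem cells, rose from 20.8 and 19.4 FPKM to levels of 51.8 and 44.6 (2.40-fold; log2 change 1.22, SE 0.111, adjusted p = 0.00366, limma). Both KLF11 siRNA libraries exceeded both controls by a wide margin. Its partner in the same form, AEBP2, overlapped between the groups, with 16.1 and 12.9 against 14.3 and 13.2 FPKM (95% interval of the log2 change -0.42 to 0.29). JARID2 was 1.404 and 1.184 times the level of SUZ12 in control and 3.75 and 2.61 times with KLF11 siRNA. The genes around JARID2 went both ways. On one side CD83 had 2.94 and 2.52 against 1.89 and 1.99 FPKM without passing (adjusted p = 0.179), and RNF182 beyond it rose from 3.25 and 3.40 FPKM to levels of 4.87 and 5.55 (adjusted p = 0.0478). On the other side DTNBP1 fell from 15.4 and 13.3 FPKM to levels of 6.38 and 6.63, and MYLIP from 7.03 and 6.87 to 3.29 and 3.49 FPKM.

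The other form of PRC2 carries a Polycomb-like protein, MTF2, PHF1 or PHF19, each of which binds CpG-rich DNA. PHF1 fell from 43.4 and 39.9 FPKM to levels of 23.2 and 27.6 (a log2 change of -0.70, SE 0.119, adjusted p = 0.0125). PHF19 measured 9.12 and 8.17 against 14.9 and 10.97 FPKM without overlap and did not pass (adjusted p = 0.0685), though it did with median-of-ratios scaling (adjusted p = 0.0413). MTF2, the form prominent in embryonic stem cells, had 31.5 and 32.0 against 36.4 and 35.9 FPKM (adjusted p = 0.15). It passed only with median-of-ratios scaling, at the edge of the threshold (adjusted p = 0.04997). PHF1 was the most abundant of them in the control libraries, at 51.7% and 49.9% of their sum, and MTF2 in the KLF11 siRNA libraries, at 48.9% and 48.2%. Of PRC2 as a whole, 1 of 11 genes rose and 2 fell, where 13.5% of all genes rose and 21.7% fell.

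**Figure D3:**
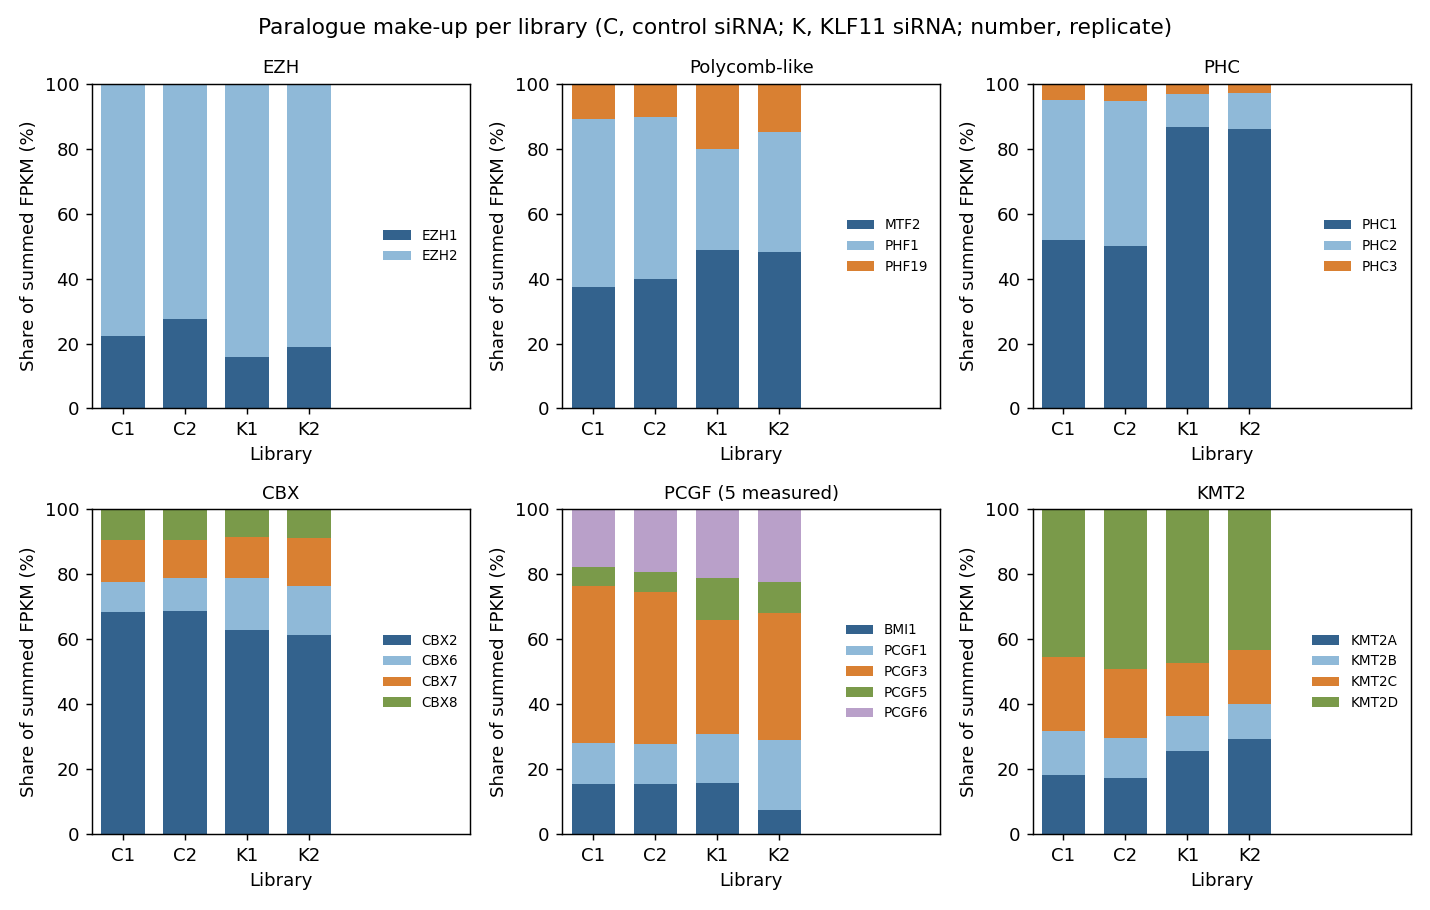
Stacked bars give each paralogue's share of the summed FPKM of its family in each library (C1 and C2, control siRNA; K1 and K2, KLF11 siRNA). PHC1 fills 86.8% and 86.0% of the PHC bars with KLF11 siRNA against 51.9% and 50.0% in control, while the CBX bars differ less.

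In PRC1 the ubiquitin ligases themselves did not pass. RNF2, the main ligase, had 33.5 and 34.3 FPKM with control siRNA, then 33.6 and 29.8 FPKM after knockdown, and RING1 15.2 and 13.4 against 13.4 and 13.3 FPKM. The 95% intervals of their log2 changes were -0.35 to 0.16 and -0.38 to 0.20. RNF2 held 68.7% to 71.8% of their sum in every library.

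PCGF proteins decide which PRC1 forms around the ligase. PCGF3, the most abundant of those measured, fell from 24.9 and 24.3 FPKM to levels of 18.4 and 19.3 (a log2 change of -0.36, SE 0.0937, adjusted p = 0.0355), and its close relative PCGF5 rose from 3 and 3.25 FPKM to levels of 6.74 and 4.73 (a log2 change of 0.69, SE 0.196, adjusted p = 0.0454). Neither call is firm: PCGF3 did not pass under median-of-ratios scaling (adjusted p = 0.106) nor did PCGF5 with TPM scaling (adjusted p = 0.0526). The summed level of the 5 PCGF genes measured hardly differed, at 51.4 and 51.9 FPKM with control siRNA, then 52.5 and 49.5 FPKM after knockdown. PCGF1, which builds the form that carries the CpG-binding protein KDM2B, had 6.36 and 6.34 against 7.89 and 10.7 FPKM (adjusted p = 0.0836). It passed with median-of-ratios scaling (adjusted p = 0.0416) and quantile normalization (adjusted p = 0.0314). PCGF6, of the form with E2F6 and MGA, had 9.19 and 9.97 against 11.1 and 11.1 FPKM (adjusted p = 0.227).

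BMI1, the PCGF protein of canonical PRC1 long tied to stem cell self-renewal, had the widest interval of the set, with a log2 change of -1.31 to 0.39. It measured 8 and 8.1 FPKM with control siRNA, against 8.36 and 3.64 FPKM in the knockdown replicates 1 and 2 (a log2 change of -0.46, adjusted p = 0.332). Only the second KLF11 siRNA library was low, and leaving out replicate 1 or replicate 2 gave a log2 change of -0.96 or 0.05. The table also lists a read-through of BMI1 and the gene before it, COMMD3-BMI1, at 3.85 and 1.95 against 0.28 and 1.83 FPKM, so reads of BMI1 may be split between these rows. COMMD3 itself dropped from 16.1 and 18.2 FPKM to levels of 6.42 and 4.01 (adjusted p = 0.0076).

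Of the CBX readers, CBX2, a compacting form and the most abundant one here, fell from 33.0 and 29.5 FPKM to levels of 18.2 and 22.4 (a log2 change of -0.60, SE 0.134, adjusted p = 0.0239). CBX8 was at 4.56 and 3.98 against 2.46 and 3.17 FPKM without overlap and did not pass (adjusted p = 0.0927). CBX2 and CBX8 lie side by side on chromosome 17 in RefSeq, and their means after knockdown were at 64.9% and 65.9% of their control means. CBX7, the reader that predominates in embryonic stem cells, overlapped, at 6.22 and 5.02 against 3.66 and 5.39 FPKM, and CBX6 had 4.48 and 4.38 against 4.65 and 5.52 FPKM (adjusted p = 0.441). Of the 4 CBX genes measured here CBX2 stayed the largest share, at 68.4% and 68.8% in control and 62.8% and 61.4% with KLF11 siRNA, and their summed level went from 48.2 and 42.9 to 28.95 and 36.5 FPKM.

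The subunits of variant PRC1 differed from each other. YAF2 fell from 10.7 and 10.9 FPKM to levels of 5.77 and 7.29 (a log2 change of -0.66, SE 0.147, adjusted p = 0.0244), and RYBP, which stimulates the ligase in the same position, overlapped, with 12.2 and 13.9 against 16.3 and 13.4 FPKM (95% interval of the log2 change -0.18 to 0.52). RYBP was 1.14 and 1.27 times YAF2 in control and 2.82 and 1.84 times with KLF11 siRNA. Of PRC1 as a whole, 2 of 16 genes rose and 4 fell, shares near the 13.5% and 21.7% of all genes.

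On the trithorax side the subunits of the shared platform changed unequally. ASH2L, which the KMT2 enzymes need for full activity, dropped from 70.4 and 74.0 FPKM to levels of 24.5 and 30.1 (a log2 change of -1.38, SE 0.122, adjusted p = 0.00357, limma). The control and KLF11 siRNA libraries were far apart. DPY30, the small subunit that docks on ASH2L, fell less, from 80.4 and 93.0 to 63.1 and 68.9 FPKM (a log2 change of -0.39, SE 0.107, adjusted p = 0.0428), and it did not pass under median-of-ratios scaling (adjusted p = 0.142) or quantile normalization (adjusted p = 0.0575). WDR5 pointed the other way without passing, at 22.9 and 23.0 against 30.02 and 27 FPKM (adjusted p = 0.0676), and passed with median-of-ratios scaling (adjusted p = 0.033). RBBP5 overlapped, with 9.91 and 9.48 against 10.4 and 9.03 FPKM (95% interval of the log2 change -0.32 to 0.32). ASH2L thus went from 3.08 and 3.22 times the level of WDR5 to 0.815 and 1.11 times. Of the nearest 4 genes around ASH2L, those that reached the filter did not pass, EIF4EBP1 at 62.8 and 62.5 against 78.9 and 59.1 FPKM and LSM1 at 25.7 and 24.2 against 30.7 and 30.8 FPKM. STAR, directly beside ASH2L, was under the filter at 0.25 and 0.56 against 0.26 and 0.22 FPKM, as was ADRB3, at or below 0.03 FPKM.

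Among the methyltransferases KMT2A, the founding mammalian trithorax homologue, rose from 8.53 and 7.43 FPKM to levels of 11.1 and 13.3 (a log2 change of 0.56, SE 0.144, adjusted p = 0.0361). That call was lost without KLF11 siRNA replicate 2 (adjusted p = 0.0778). KMT2C, an enhancer enzyme, had 10.6 and 9.25 against 7.02 and 7.48 FPKM without overlap and did not pass (adjusted p = 0.0643). Scaled to TPM it passed as lower, at the edge of the threshold (adjusted p = 0.0498). KMT2D, the more abundant relative of KMT2C, had 21.3 and 21.2 against 20.6 and 19.6 FPKM (95% interval of the log2 change -0.31 to 0.16). KMT2B, which acts on promoters, had 6.36 and 5.31 against 4.74 and 4.82 FPKM (adjusted p = 0.263), and ASH1L, which methylates lysine 36 of histone H3, 5.32 and 4.75 against 3.84 and 5.19 FPKM (adjusted p = 0.575). The summed KMT2 level hardly differed, at 46.7 and 43.2 against 43.5 and 45.3 FPKM, and KMT2A made up 18.3% and 17.2% of it in control and 25.6% and 29.5% with KLF11 siRNA. Menin, the partner of KMT2A and KMT2B, fell from 25.4 and 22.3 FPKM to levels of 14.3 and 16.1 (a log2 change of -0.62, SE 0.12, adjusted p = 0.0172). Of the trithorax genes as a whole, 1 of 10 rose and 3 fell, against the same 13.5% and 21.7%. KMT2A stood at 0.3353 and 0.3333 of the MEN1 level in control and at 0.778 and 0.829 with KLF11 siRNA.

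Other components of the same machinery are read against all genes, of which 13.5% were higher and 21.7% lower. Of 20 PRC1 partner genes 1 rose and 7 fell, with a median log2 change of -0.24; L3MBTL1, a reader of methylated histones, went from 13.6 and 11.8 FPKM down to 2.69 and 4.04 (adjusted p = 0.0056), BCORL1 from 10.2 and 9.10 to 2.74 and 4.09 FPKM, and FBRS from 23.4 and 21.9 to 6.67 and 11.3 FPKM. TFDP1, the rise, partners E2F factors and went from 46.5 and 46.1 to 60.5 and 65.4 FPKM. Under median-of-ratios scaling, where 18.0% of all genes were higher and 17.0% lower, 2 rose and 4 fell. Of 11 tested PRC2 partners and antagonists 0 rose and 6 fell, with a median log2 change of -0.37, and median-of-ratios scaling gave 0 and 3. KDM6B, which removes the PRC2 mark, fell from 19.7 and 17.3 FPKM to levels of 5.86 and 9.01 (adjusted p = 0.0121), and KDM6A, the other demethylase, had 47.7 and 48.9 against 46.9 and 47.5 FPKM (adjusted p = 0.774).

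In the complex of BAP1, the deubiquitinase that undoes the PRC1 mark, 1 of 10 tested genes rose and 2 fell. Median-of-ratios scaling and quantile normalization each gave 2 higher and 1 lower. Of all genes those scalings gave 18.0% and 17.3% higher, and 17.0% and 17.4% lower. MBD6 went from 22.3 and 21.6 FPKM down to 9.87 and 11.9 (adjusted p = 0.00698), ASXL1 fell (adjusted p = 0.0411) and its paralogue ASXL2 rose from 7.89 and 7.5 FPKM to levels of 11.3 and 11.2 (adjusted p = 0.0268). BAP1 itself overlapped, at 37.1 and 32.8 against 35.9 and 32.6 FPKM. Of 11 other tested subunits and partners of the KMT2 and SETD1 complexes 0 rose and 2 fell, KMT2E and NCOA6, and with median-of-ratios scaling 0 did either. Both this list and that of BAP1 hold few genes, and their shares of lower genes are near that of all genes. Their median log2 changes were further below 0, at -0.18 for this list and -0.37 for that of BAP1, against -0.11 for all genes. SETD1A, a relative of the KMT2 enzymes, had 7.02 and 6.70 against 9.47 and 8.35 FPKM (adjusted p = 0.101).

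Genes known to carry the Polycomb mark in stem cells moved both ways. Of 39 developmental regulators listed, 18 reached the filter, and 8 rose and 6 fell (8 and 6 with median-of-ratios scaling, 7 and 7 scaled to TPM). Of all genes tested 13.5% were higher and 21.7% lower. Those shares were 18.0% and 17.0% with median-of-ratios scaling, and 11.9% and 24.1% scaled to TPM. EOMES, which rose, GATA4 and GATA6, which fell, and GSC, which did not pass, are also among the early endoderm markers. The 2 lists are thus not separate. CDKN2A, TBX5 and MSX1, with control means of 0.245, 0.73 and 0.605 FPKM, reached the filter only through the knockdown libraries. ISL1, which fell to a mean of 0.67 FPKM, reached it only through the controls. The filter thus favours genes that differ, and the counts depend on it. PAX6 dropped from 24.9 and 22.3 FPKM to levels of 2.54 and 1.63 (adjusted p = 0.00235), and TBX3 from 16.95 and 15.1 to 6.40 and 7.33 FPKM. FOXD3 went from 1.17 and 1.13 FPKM up to 10.5 and 8.17 (adjusted p = 0.00322), and TBXT, the mesoderm factor brachyury, from 4.04 and 2.98 to 17.1 and 23.0 FPKM. CDKN2A, a cell cycle inhibitor locus classically silenced by BMI1, was at 0.18 and 0.31 FPKM with control siRNA, then 6.28 and 2.81 FPKM after knockdown (adjusted p = 0.0116). BMI1 measured 8.36 and 3.64 FPKM in the same KLF11 siRNA libraries, and a link between the levels of BMI1 and CDKN2A was not tested. Of 10 HOXA genes listed, classical targets of KMT2A and menin, 0 reached the filter. MEIS1, another menin target, fell from 3.32 and 2.38 FPKM to levels of 0.54 and 0.37 (adjusted p = 0.0106), and PBX3 did not pass (adjusted p = 0.671). MEIS1 reached the filter only through the control libraries.

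**Figure D4:**
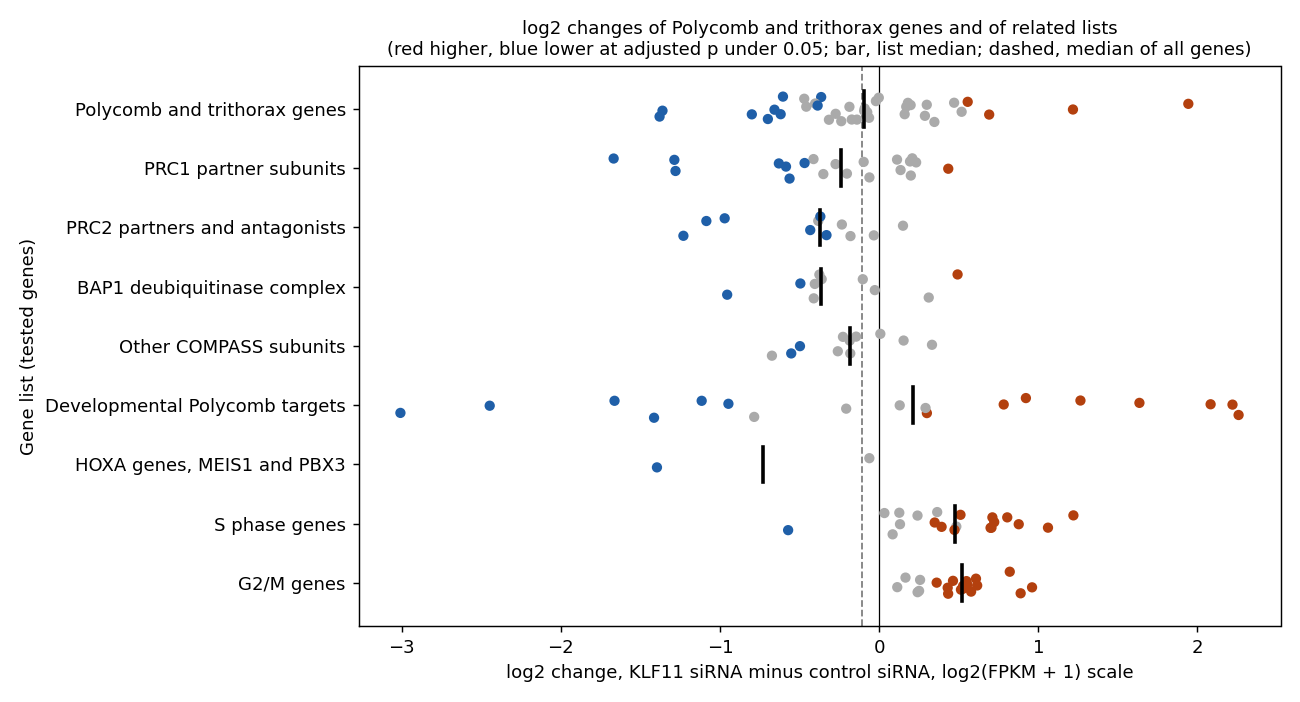
Each point is the log2 change of 1 tested gene (KLF11 siRNA minus control siRNA, log2(FPKM + 1) scale) in the Polycomb and trithorax set and in 8 related lists, with a bar at the list median. The set is centred at -0.09, near the median of all genes, with PHC1 far to the right at 1.94, while S phase and G2/M genes are centred at 0.48 and 0.52.

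Cell cycle genes, several of which share E2F control with EZH2, were mostly higher in the same libraries. Of 20 S phase genes 12 rose and 1 fell, and of 20 G2/M genes 15 rose and 0 fell, where 13.5% of all genes rose and 21.7% fell. The S phase gene that fell was CCNE1, from 26.2 and 24.1 to 15.4 and 17.9 FPKM (adjusted p = 0.0198, limma). E2F1 itself overlapped, at 9.93 and 9.38 against 9.71 and 10.9 FPKM (adjusted p = 0.615, limma). The median log2 changes of the S phase and G2/M lists were 0.48 and 0.52, beside 0.29 for EZH2, 0.52 for PHF19, -0.02 for SUZ12 and -1.36 for RBBP7. PCNA rose from 60.3 and 67.9 FPKM to levels of 158 and 143 (adjusted p = 0.00334) and CENPF from 27.6 and 27.6 to 53.8 and 50.1 FPKM (adjusted p = 0.00442). The part of cell division in the levels of EZH2, PHF19 and RBBP7 was not tested.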

How the data were processed

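The authors deposited FPKM values with 2 decimals, 1 column per library, for Ensembl gene identifiers. Tools named in the submitters' processing notes are RSEM 1.3.1 and Trim Galore 0.5.0, with build hg19 (GRCh37). The sources used here name no aligner, annotation release or strand setting. No counts are in the table, and low values showed no common step, so the depth of each library is unknown and FPKM sums ran from 577849 to 604498. RSEM splits reads among matching transcripts, so genes with pseudogenes or read-through transcripts are uncertain, and overlapping genes or those on opposite strands may share reads.

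Columns were matched to samples by name (0 unmatched) and groups taken from titles. Genes with a mean of at least 1 FPKM were tested with limma 3.58.1 (R 4.3.3; eBayes with a trend) on log2(FPKM + 1), a scale that understates changes of low genes, two-sided, with Benjamini-Hochberg adjustment over all genes tested and a threshold of 0.05. The fit was also run on simulated data in which few genes changed, all upward. Here 35.2% of genes were called, in both directions, so that run gives no error rate for these calls. Folds are ratios of mean FPKM. Values are in replicate order. The alternatives were other pseudocounts (0.1, 5), filters (none, 5 FPKM), scalings and variance settings, an adjusted p of 0.1, a replicate block and each library left out.

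The gene set and lists were chosen with earlier results of these data known, and each list has only counts and a median, with no test. All 37 genes are named. Of each related list, up to 4 genes with the smallest p that passed and those behind counts of 5 or fewer are named. BAP1, KDM6A, SETD1A, CDKN2A, E2F1 and the genes shared with the endoderm markers were chosen after their values were seen. Neighbouring genes and the rows sharing reads were also chosen after values were seen, as were ratios between genes. Promoter windows and gene order are from RefSeq GRCh38.p14, so they carry no coordinates of the deposited build. Identity between paralogous proteins was planned and not computed here, and some related genes are not reported here. Figures used matplotlib 3.10.9.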

Additional observations from a re-analysis of the deposited data

How the results depend on the processing

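PHC1, JARID2, ASH2L, RBBP7 and PHC2 passed in all 11 alternatives that kept every library, with log2 changes of 1.82 to 2.07, 1.08 to 1.34, -1.43 to -1.25, -1.41 to -1.23 and -0.86 to -0.67. Of the 37 genes 4 were higher and 9 lower. The higher count was 9 with median-of-ratios scaling and 8 with quantile normalization, where 18.0% and 17.3% of all genes were higher. It was 8 at an adjusted p of 0.1, a looser threshold that also calls more of all genes, in a share not given here. With no filter 2 were higher and 3 lower (6.25% of all genes called). Over all genes, no filter gave 887 higher and 1251 lower against 2071 and 3329. With the replicate number as a block the calls of PCGF3, PCGF5 and KMT2A were lost. In that limma fit 15 of the 37 had an unadjusted p under 0.05, against 43.3% of all genes tested. Same-numbered libraries did not deviate together (r = -0.071), so the numbers are not taken to pair them. Leaving out 1 library gave 0 to 5 higher and 0 to 9 lower of the set, 0 to 2291 higher and 0 to 3813 lower over all genes, and a log2 change of KLF11 from -1.04 to -0.79, with adjusted p up to 0.116; the counts of 0 came without either control library, when the spread rests on the KLF11 siRNA pair and the lone control is assumed to vary like it. Changes of sign, all in genes that did not pass, were SUZ12 0.103, AEBP2 0.0600, RING1 0.0322, RNF2 0.0338, KMT2D 0.0511 and RBBP5 0.117 with median-of-ratios scaling, and SUZ12 0.106, AEBP2 0.0582, RING1 0.0311, KMT2D 0.0454, ASH1L 0.0318 and RBBP5 0.140 with quantile normalization; both scalings recentre all genes by construction. With 1 library left out SUZ12 ranged from -0.164 to 0.124, AEBP2 from -0.213 to 0.0879, BMI1 from -0.964 to 0.0486, ASH1L from -0.317 to 0.0382 and RBBP5 from -0.0923 to 0.0886. The depth is unknown, so no limit from it can be given.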
